A study of Mus musculus with 5 samples.

Results

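Ribosome biogenesis factors are the proteins that make ribosomal RNA (rRNA), trim and modify it, and fold it with ribosomal proteins into subunits, without being parts of the finished ribosome. The 39 genes described here were taken as a fixed list of symbols, and all 39 were found by gene name among the 36870 gene names of the array, on 77 of its 56605 probes. The question of the study, from its title, was how troglitazone injures the mouse liver. Female BALB/c mice, 6 weeks of age, were injected into the peritoneum and the liver was taken 6 hr later. The 4 treated groups received TGZ, BSO plus TGZ, RGZ, or BSO plus RGZ, with TGZ and RGZ at 300 mg/kg and BSO at 700 mg/kg, and the fifth group received vehicle. TGZ is troglitazone and RGZ is rosiglitazone, both thiazolidinedione drugs. Troglitazone carries a chroman group like that of vitamin E where rosiglitazone carries a pyridyl-amino group. BSO is buthionine sulfoximine, an inhibitor of glutathione synthesis.

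Each group is 1 array of RNA pooled in equal amounts from 6 livers, so no value below has a spread between animals, and no difference has a replicate check or a test. The same vehicle array stands in all 4 comparisons with vehicle, and no group received BSO alone. A level is given as scaled signal, which is the probe's processed signal divided by the 75th percentile of its own array. A gene is represented by the probe that is brightest on average, and levels are never set against those of another gene. Differences are in log2 units, a difference of 1 being 2-fold, and a gene past 2-fold is counted as higher or lower. The 95% ranges given beside folds cover the measurement error of the spots only. In whole liver, more RNA per cell and more cells of a type cannot be told apart.

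Ribosome production starts in the nucleolus, where RNA polymerase I copies the rRNA genes into a long precursor. Small nucleolar ribonucleoproteins guide chemical marks onto this precursor, box C/D particles methylating it and box H/ACA particles converting uridine to pseudouridine, while separate sets of assembly factors cut and fold the small and the large subunit. In liver these genes are known to be induced when hepatocytes grow or prepare to divide, and many of them are known targets of the transcription factor MYC.

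Signal well above background was seen on every array for 38 of the 39 genes. The exception was Utp18, a protein of the small subunit processome, which was well above background only in the BSO plus RGZ pool. The 75th percentile of processed signal was 142, 170, 208 and 191 on the TGZ, BSO plus TGZ, RGZ and BSO plus RGZ arrays and 185 on the vehicle array. Between 51.9% and 55.1% of probes were well above background, and no spot was saturated. All 8 hepatocyte markers, albumin (Alb) among them, were well above background in every pool. The summed scaled signal of 11 neutrophil markers was 256 with TGZ, 257 with BSO plus TGZ, 120 with RGZ and 126 with BSO plus RGZ, against 110 with vehicle, of which 100 came from Csf3r, the receptor of a neutrophil growth factor, which was at 115 with TGZ. Past 2-fold higher than vehicle were 8 of 11 of these markers with TGZ, 8 of 11 with BSO plus TGZ, 3 of 8 with RGZ and 4 of 10 with BSO plus RGZ. The shares of all genes were 10.1%, 8.32%, 1.66% and 3.05%. Compared with vehicle, the TGZ pool had 42.3-fold more Retnlg signal, and S100a9 and S100a8 stood 16.8-fold and 18.6-fold above it. Ly6g went the other way, at 0.683 with TGZ against 1.11 with vehicle. With RGZ, S100a9 stood 2.80-fold and S100a8 3.29-fold above vehicle. Among markers of other liver cells, Lyve1 was 13.4-fold higher, Kdr 3.84-fold lower and Lrat 4.62-fold lower with TGZ than with vehicle. Lrat was the only 1 of 6 stellate cell markers past 2-fold, and 3 of the 6 lay above vehicle. Of 5 sinusoidal endothelium markers, Lyve1 and Kdr among them, 1 was past 2-fold higher and 2 lower. The summed signal of 10 proliferation markers was 11.7 with TGZ, 11.5 with BSO plus TGZ, 7.46 with RGZ and 8.27 with BSO plus RGZ, against 8.20 with vehicle. Most of each sum came from Pcna, which was at 7.77 with TGZ against 4.77 with vehicle. With TGZ, 0 of 8 measured proliferation markers were past 2-fold, 6 lay above vehicle and 2 below. Cxcr2, Mmp9, Ngp and Ltf, 4 of the neutrophil markers, were not well above background in the vehicle pool, and all 11 were with TGZ. The proliferation markers Top2a and Ccnb1 were not well above background in either the TGZ or the vehicle pool. The part of these cells in the values of the biogenesis genes was not tested.

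To show what the arrays read, 60-base probes are given for 4 genes. The first pair is for the pattern of high signal with TGZ, and the second pair for that with BSO plus RGZ. Each probe maps to a genomic stretch longer than itself and has a reading frame without a stop codon. Whether the 4 probes lie in coding sequence was not checked. Their positions on mouse build mm9 are chr17:32196259-32197328 for Rrp1b (plus strand), chr19:41945749-41945925 for Rrp12 (minus strand), chr11:106111349-106111506 for Ftsj3 (minus strand) and chr19:8812462-8812679 for Wdr74 (plus strand). The Wdr74 probe is the one that represents its gene below, and the Rrp1b, Rrp12 and Ftsj3 probes are further probes of those genes.
Rrp1b: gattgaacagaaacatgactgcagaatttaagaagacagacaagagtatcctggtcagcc
Rrp12: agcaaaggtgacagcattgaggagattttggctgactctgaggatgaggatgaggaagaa
Ftsj3: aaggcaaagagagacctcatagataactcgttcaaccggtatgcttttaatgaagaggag
Wdr74: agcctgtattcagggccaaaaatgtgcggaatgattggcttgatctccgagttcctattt

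With TGZ, 9 of 38 measured biogenesis genes (23.7%) were at least 2-fold higher than with vehicle and 0 were lower, where 10.1% of 21209 genes were higher and 9.51% lower. They were Nop58, Rrp1b, Gnl3, Rrs1, Gar1, Rrp12, Mybbp1a, Nob1 and Nolc1. The median difference of the 38 was 0.56, with a range of -0.26 to 2.36, beside a median of 0.02 over all genes. Their values lay above 0 for 33 of 38 genes, and for 23 of 38 when spikes of known RNA set the scale. That scaling moved the median of all genes to -0.41. It moves every gene of an array by the same amount. The biogenesis genes' median therefore stood 0.54 above that of all genes under both scalings by construction.

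With BSO plus TGZ, 8 of 38 genes (21.1%) were at least 2-fold higher than with vehicle and 0 were lower, beside 8.32% and 5.88% of 21416 genes. All 8 were also past 2-fold with TGZ alone, and Nob1, at 0.97, was the one that was not past it. Rrp12, Nolc1 and Mybbp1a stood at the threshold itself, with differences of 1.00 each. The median difference was 0.51, and 34 of 38 genes lay above 0, or 26 of 38 under spike-in scaling.

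With RGZ, 0 of 38 genes were 2-fold higher or lower, where 3.31% of 21268 genes were, 1.66% higher and 1.66% lower. The median difference was 0.33, beside -0.03 over all genes, and 35 of 38 genes lay above 0, so that the values were small and mostly of one sign. With BSO plus RGZ, 4 of 39 genes (10.3%) were at least 2-fold higher, beside 3.05% of 21200 genes, and 0 were lower, beside 3.78%, or 6.83% in either direction. These were Gnl3, Nop58, Nolc1 and Nop14. The median difference was 0.58, beside -0.05 over all genes, and 37 of 39 genes lay above 0. The 39 include Utp18, which was well above background in the BSO plus RGZ pool only. Its value is a bound that could only lie above 0, so its sign was fixed in advance. Over the 38 genes well above background on every array the median was also 0.58. Which of the TGZ and BSO plus RGZ pools had more genes past 2-fold depended on the scaling, since with spike-ins 5 genes were higher with TGZ, at a median of 0.13, and 9 were with BSO plus RGZ, at a median of 0.72.

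**Figure D1:**
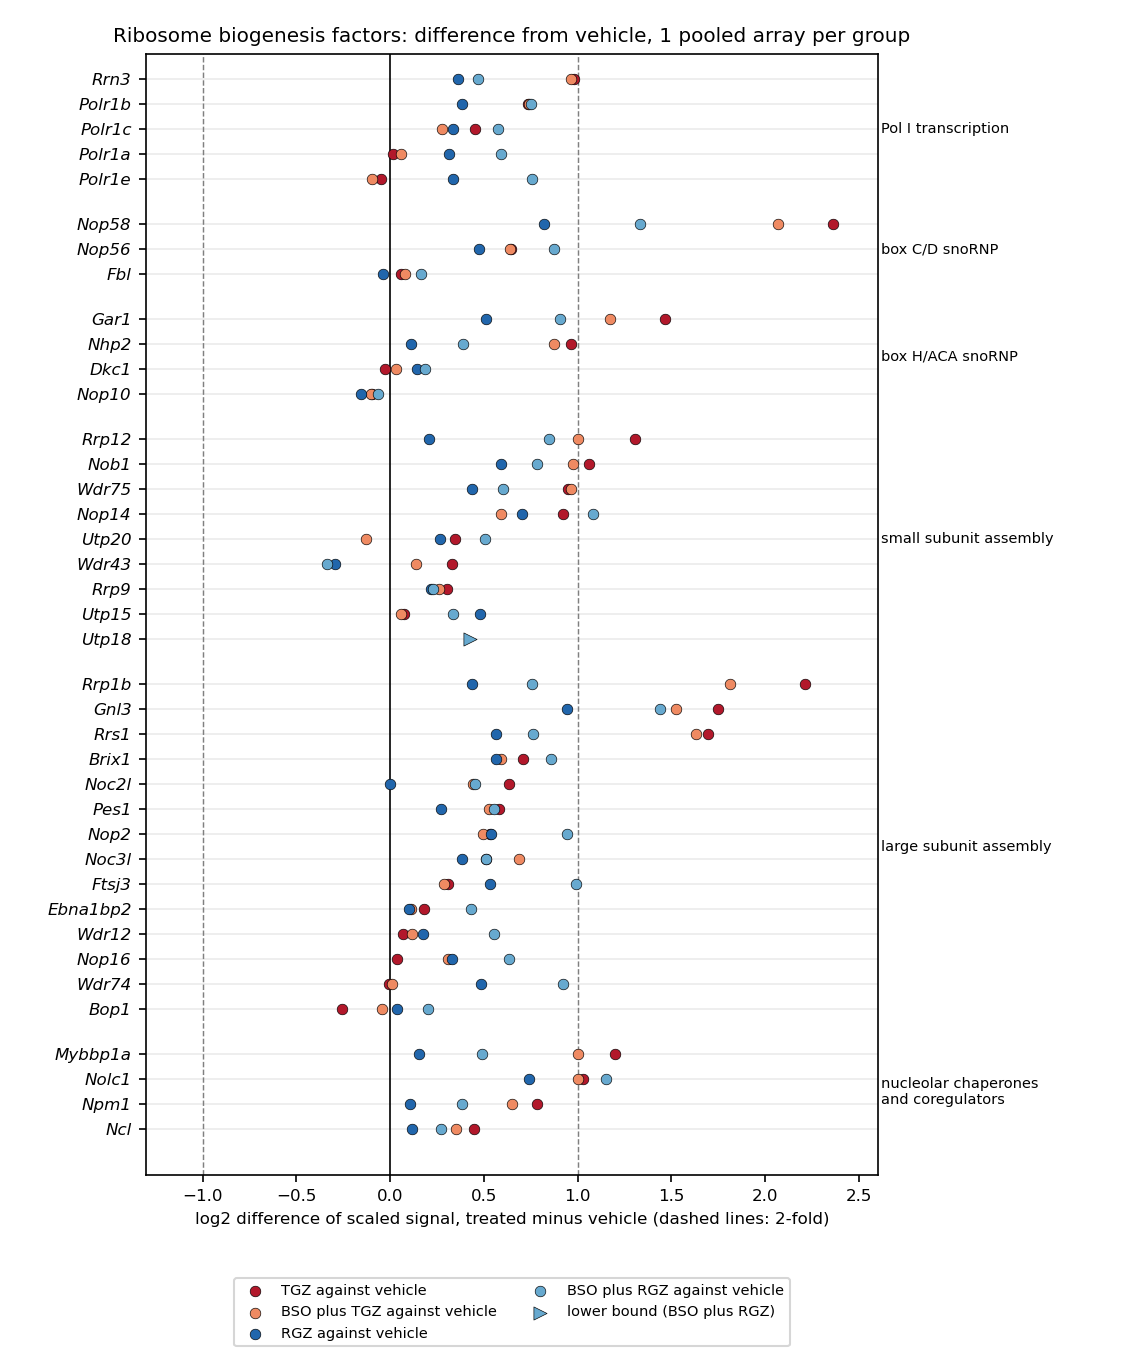
Log2 difference of scaled signal from vehicle (x axis) for each of the 39 genes (y axis, grouped by role and ordered by the TGZ value), 1 point per treated pool, with dashed lines at 2-fold. TGZ points run from -0.26 to 2.36 and RGZ points from -0.29 to 0.95. Utp18 has a lower bound for BSO plus RGZ only.

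The vehicle pool had the lowest signal of the 5 arrays for 30 of 38 genes (78.9%), where this was so for 22.8% of the 18483 genes that every array measured. The highest signal was in the BSO plus RGZ pool for 18 genes (47.4%, beside 20.7% of all genes) and in the TGZ pool for 16 genes (42.1%, beside 34% of all genes). The TGZ share was near that of all genes, and both kinds of gene occur in the roles below. Where the highest signal lay depended on the scaling, since under spike-in scaling it was in the BSO plus RGZ pool for 29 of 38 genes (beside 38.7% of all genes) and in the TGZ pool for 2, and the lowest was in the vehicle pool for 23 and in the TGZ pool for 13.

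Among the 5 genes of RNA polymerase I transcription, none was past 2-fold with any treatment. Rrn3, the initiation factor that readies the polymerase for the rRNA promoter, had scaled signals of 6.26 with TGZ, 6.19 with BSO plus TGZ, 4.07 with RGZ and 4.38 with BSO plus RGZ, against 3.16 with vehicle. It came closest to 2-fold, at 1.98-fold higher with TGZ (range 1.5 to 2.61). Polr1b, a catalytic subunit, had 0.942 with TGZ, 0.943 with BSO plus TGZ, 0.736 with RGZ and 0.95 with BSO plus RGZ, against 0.565 with vehicle. Polr1b was thus about equal in 3 treated pools and lower in the RGZ pool.

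Polr1a, the largest catalytic subunit, had 3.79 with TGZ, 3.90 with BSO plus TGZ, 4.66 with RGZ and 5.65 with BSO plus RGZ, against 3.75 with vehicle. Polr1e, another subunit, was also highest in the RGZ pools, with 1.2 with TGZ, 1.16 with BSO plus TGZ, 1.56 with RGZ and 2.09 with BSO plus RGZ, against 1.24 with vehicle. For these subunits both TGZ pools lay near vehicle and both RGZ pools lay above it, and with spike-in scaling the TGZ values lie below vehicle. Polr1c, a subunit shared with RNA polymerase III, had 6.53 with TGZ, 5.78 with BSO plus TGZ, 6.00 with RGZ and 7.10 with BSO plus RGZ, against 4.76 with vehicle. Its 4 treated values all lay above vehicle, between 0.28 and 0.58 in log2 units.

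The box C/D proteins differed widely from each other. Nop58, a scaffold of the particle, had scaled signals of 18.7 with TGZ, 15.3 with BSO plus TGZ, 6.43 with RGZ and 9.20 with BSO plus RGZ, against 3.65 with vehicle. It was 5.13-fold higher with TGZ (range 3.89 to 6.77), the largest difference among the 39 genes, 4.19-fold higher with BSO plus TGZ (3.18 to 5.53) and 2.52-fold higher with BSO plus RGZ (1.91 to 3.33). Nop56, the partner scaffold, had 8.61 with TGZ, 8.57 with BSO plus TGZ, 7.64 with RGZ and 10.1 with BSO plus RGZ, against 5.51 with vehicle. Its differences from vehicle lay between 0.47 and 0.87, none past 2-fold. Fbl, fibrillarin, the methyltransferase of the particle, had 41.9 with TGZ, 42.7 with BSO plus TGZ, 39.2 with RGZ and 45.2 with BSO plus RGZ, against 40.3 with vehicle. All 5 arrays lay close together for Fbl, with differences of -0.04 to 0.16 from vehicle.

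The box H/ACA proteins were split in the same way. Gar1, a core protein, had 18.2 with TGZ, 14.8 with BSO plus TGZ, 9.39 with RGZ and 12.3 with BSO plus RGZ, against 6.58 with vehicle. It was 2.76-fold higher with TGZ (2.09 to 3.64) and 2.25-fold higher with BSO plus TGZ (1.71 to 2.97). Nhp2, a core protein that binds the guide RNA, had 61.1 with TGZ, 57.3 with BSO plus TGZ, 33.8 with RGZ and 41.0 with BSO plus RGZ, against 31.3 with vehicle. Nhp2 lay just under 2-fold with TGZ, at a difference of 0.97, and near vehicle with RGZ, at 0.11.
Dkc1, the pseudouridine synthase, had 0.384 with TGZ, 0.40 with BSO plus TGZ, 0.432 with RGZ and 0.446 with BSO plus RGZ, against 0.392 with vehicle. Nop10, the smallest core protein, had 14.6 with TGZ, 14.5 with BSO plus TGZ, 14.0 with RGZ and 14.9 with BSO plus RGZ, against 15.6 with vehicle. By the probes that represent them, every treated pool lay within 0.19 of vehicle in log2 units for both. Another probe of the same Dkc1 transcript was at -0.06 with TGZ, -0.14 with BSO plus TGZ, -0.10 with RGZ and 0.55 with BSO plus RGZ. Nop10 was the only one of the 38 genes whose highest value was in the vehicle pool.

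**Figure D2:**
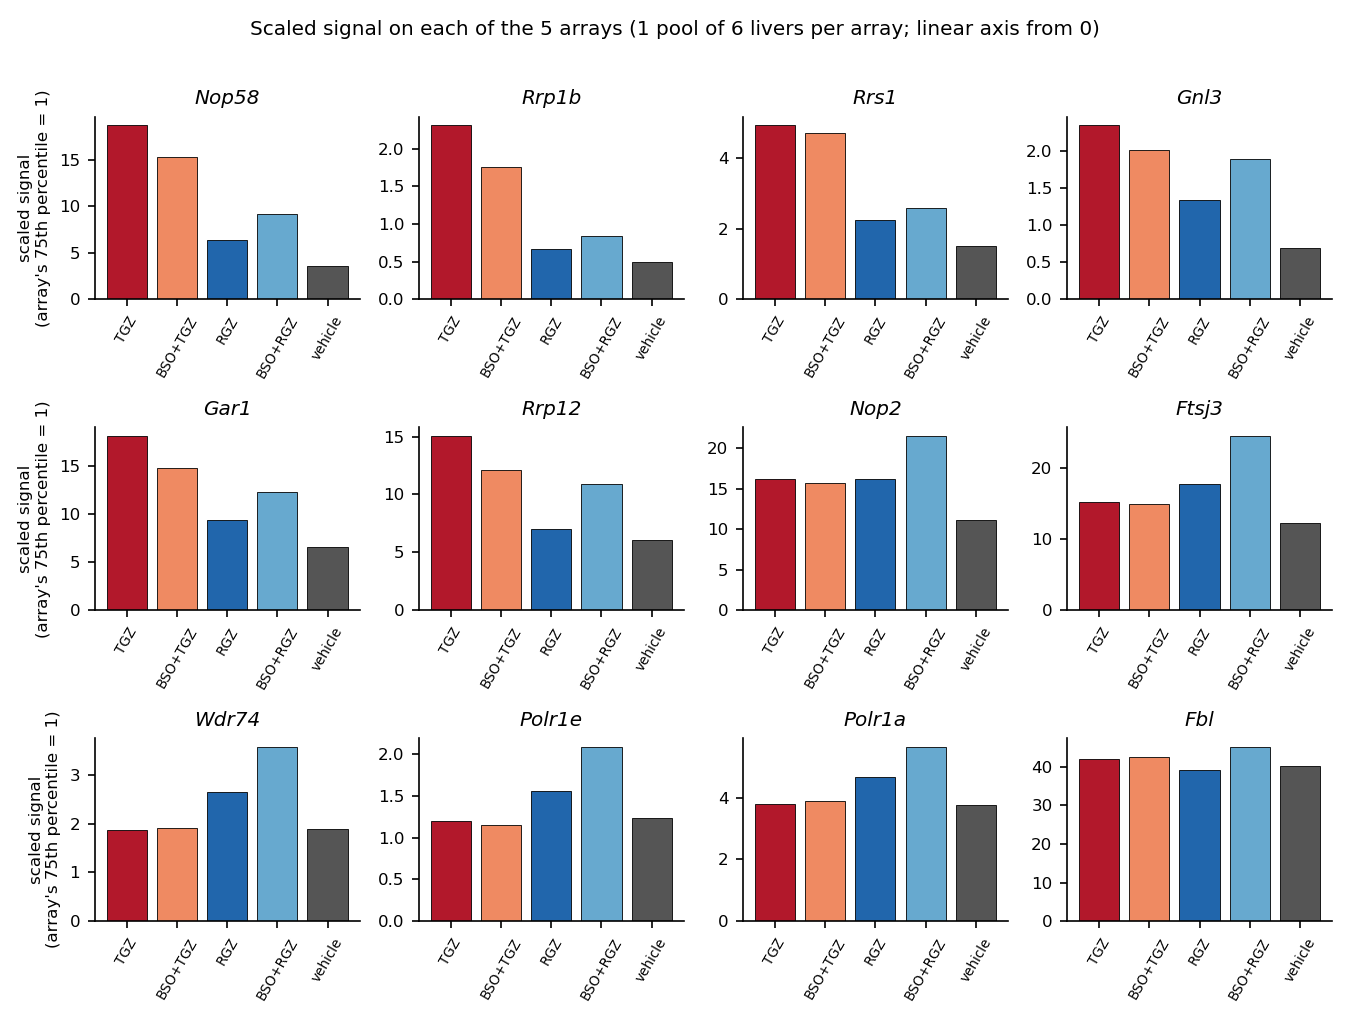
Scaled signal (linear axis from 0, 75th percentile of the array set to 1) of 12 of the 39 genes, 1 bar per array, with the vehicle bar last. Nop58, Rrp1b, Rrs1, Gnl3, Gar1 and Rrp12 have their tallest bar at TGZ under this scaling, and Nop2, Ftsj3, Wdr74, Polr1e and Polr1a at BSO plus RGZ. The bars of Fbl lie between 39.2 and 45.2.

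Of the 9 small subunit assembly factors, 2 were past 2-fold with TGZ, both higher, where 10.1% of all genes were. Rrp12, a factor known in yeast for the export of pre-ribosomes, had 15.0 with TGZ, 12.1 with BSO plus TGZ, 7.02 with RGZ and 10.9 with BSO plus RGZ, against 6.07 with vehicle. It was 2.48-fold higher with TGZ (1.88 to 3.27). Nob1, the endonuclease that makes the last cut of small subunit rRNA, had 2.5 with TGZ, 2.36 with BSO plus TGZ, 1.81 with RGZ and 2.06 with BSO plus RGZ, against 1.2 with vehicle. It was 2.09-fold higher with TGZ (1.58 to 2.75), and its BSO plus TGZ value was close to that.

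Nop14, which acts in the early small subunit precursor, had 0.659 with TGZ, 0.522 with BSO plus TGZ, 0.565 with RGZ and 0.734 with BSO plus RGZ, against 0.347 with vehicle. It was 2.11-fold higher with BSO plus RGZ (1.58 to 2.83), and with another background correction (normexp) that difference was 0.66 in log2 units in place of 1.08. Utp20, a large scaffold of the precursor, had 2.50 with TGZ, 1.80 with BSO plus TGZ, 2.36 with RGZ and 2.79 with BSO plus RGZ, against 1.96 with vehicle. The BSO plus TGZ pool was the lowest of the 5 for Utp20, and the other 3 treated pools lay above vehicle.

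Wdr75, of the subcomplex that joins transcription to processing, lay just under 2-fold with TGZ (0.95) and BSO plus TGZ (0.97) by the probe that represents it. Utp15, of the same subcomplex, lay between 0.06 and 0.48 above vehicle in the treated pools, and Rrp9, a protein of the U3 particle, between 0.22 and 0.31. Wdr43, also of that subcomplex, was the gene with the lowest BSO plus RGZ value, at -0.34, and was at 0.33 with TGZ. Utp18 had only a bound, at least 1.35-fold higher with BSO plus RGZ than with vehicle (range 0.710 to 2.55), so that spot error alone spans no difference.

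Of the 14 large subunit assembly factors, 3 were past 2-fold with TGZ and the same number with BSO plus TGZ. All were higher, where 10.1% and 8.32% of all genes were. Rrp1b had scaled signals of 2.31 with TGZ, 1.75 with BSO plus TGZ, 0.673 with RGZ and 0.841 with BSO plus RGZ, against 0.498 with vehicle. It was 4.64-fold higher with TGZ (3.50 to 6.16) and 3.52-fold higher with BSO plus TGZ (2.65 to 4.67). Rrs1, known in yeast for bringing a small rRNA into the large subunit, had 4.92 with TGZ, 4.70 with BSO plus TGZ, 2.24 with RGZ and 2.58 with BSO plus RGZ, against 1.52 with vehicle. Both TGZ pools stood about 3-fold above vehicle for Rrs1, at 3.24-fold (2.46 to 4.28) with TGZ and 3.1-fold (2.35 to 4.09) with BSO plus TGZ. Gnl3, nucleostemin, a nucleolar GTP-binding protein, had 2.35 with TGZ, 2.01 with BSO plus TGZ, 1.34 with RGZ and 1.89 with BSO plus RGZ, against 0.698 with vehicle. Gnl3 was the gene farthest from vehicle with RGZ, at 1.93-fold higher (1.45 to 2.55), and with BSO plus RGZ, at 2.71-fold (2.05 to 3.59), and it was 3.36-fold higher with TGZ (2.54 to 4.45).

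By the probes that represent them, the other 11 large subunit factors did not pass 2-fold with any treatment. Further probes of Ftsj3 and Noc2l did, as given below. Among the rRNA methyltransferases, Ftsj3 had 15.2 with TGZ, 15.0 with BSO plus TGZ, 17.7 with RGZ and 24.5 with BSO plus RGZ, against 12.3 with vehicle, and so lay just under 2-fold with BSO plus RGZ (0.99). Nop2 had 16.2 with TGZ, 15.7 with BSO plus TGZ, 16.2 with RGZ and 21.5 with BSO plus RGZ, against 11.2 with vehicle. Wdr74, of an early large subunit particle, had 1.88 with TGZ, 1.90 with BSO plus TGZ, 2.65 with RGZ and 3.58 with BSO plus RGZ, against 1.89 with vehicle. For these 3 genes BSO plus RGZ was the highest pool, and the TGZ pools were near vehicle for Wdr74 only.

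Pes1, Bop1 and Wdr12 form the PeBoW complex, which is needed to process large subunit rRNA. With TGZ, Pes1 was at 0.58, Wdr12 at 0.07 and Bop1 at -0.26, the lowest TGZ value of the 38 genes. With BSO plus RGZ, Pes1 was at 0.56, Wdr12 at 0.55 and Bop1 at 0.20, so that the partners lay closer together in that pool than with TGZ. Brix1, Noc2l, Noc3l, Nop16 and Ebna1bp2, which act in building the large subunit, lay between 0.04 and 0.71 with TGZ and between 0.43 and 0.86 with BSO plus RGZ.

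By the probes that represent them, the 4 nucleolar chaperones and coregulators lay above vehicle in every treated pool. Mybbp1a, a nucleolar coregulator that binds MYB, had 51.9 with TGZ, 45.2 with BSO plus TGZ, 25.1 with RGZ and 31.7 with BSO plus RGZ, against 22.6 with vehicle. It was 2.30-fold higher with TGZ (1.74 to 3.03). Nolc1, a chaperone of nucleolar particles, had 6.44 with TGZ, 6.31 with BSO plus TGZ, 5.27 with RGZ and 6.99 with BSO plus RGZ, against 3.15 with vehicle. It was 2.04-fold higher with TGZ (1.55 to 2.70) and 2.22-fold higher with BSO plus RGZ (1.68 to 2.93). Its TGZ value of 1.03 fell under 2-fold with quantile normalization (0.99), normexp (0.87) and spike-in scaling (0.61).
Npm1, nucleophosmin, a histone and pre-ribosome chaperone, had 43.1 with TGZ, 39.3 with BSO plus TGZ, 26.9 with RGZ and 32.7 with BSO plus RGZ, against 25.1 with vehicle. Ncl, nucleolin, had 22.2 with TGZ, 20.8 with BSO plus TGZ, 17.7 with RGZ and 19.6 with BSO plus RGZ, against 16.3 with vehicle. By these probes both had the order TGZ, BSO plus TGZ, BSO plus RGZ, RGZ and vehicle, from high to low, and neither was past 2-fold. A further Npm1 probe kept that order, but another was at 0.12 with TGZ, 0.33 with BSO plus TGZ, -0.08 with RGZ and 0.33 with BSO plus RGZ. Another Ncl probe was at 0.81 with TGZ and 0.93 with BSO plus TGZ.

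TGZ and RGZ were given at the same dose and time, so they could be compared directly, in 2 pairs, without and with BSO. Without BSO, 5 of 38 genes (13.2%) were at least 2-fold higher with TGZ than with RGZ and 0 were lower, beside 9.41% and 8.57% of 21071 genes. Rrp1b was 3.43-fold higher (range 2.59 to 4.54), Nop58 2.91-fold (2.20 to 3.84), Rrs1 2.19-fold (1.66 to 2.89), Rrp12 2.14-fold (1.62 to 2.83) and Mybbp1a 2.07-fold (1.57 to 2.73). The share is near that of all genes. The median difference was 0.20, with 28 of 38 genes above 0, and under spike-in scaling it was -0.33, with 12 of 38 above 0. The median of all genes was 0.07 and -0.45 under these scalings. The biogenesis genes stood 0.13 and 0.12 above it, a gap that a shift of whole arrays leaves nearly fixed. The spot error of a difference spanned a factor of 1.32 either way at the median. The range lay above 0 for 14 genes (36.8%), below 0 for Wdr74 (-0.50, or 2.63% of the genes) and held 0 for 23 genes. Of 19142 genes, it lay above 0 for 25.3% and below 0 for 21.4%.

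With BSO in both pools, 1 of 39 genes (2.56%) was at least 2-fold higher with BSO plus TGZ than with BSO plus RGZ, beside 8.34% of 21293 genes, and 0 were lower, beside 5.26%. It was Rrp1b, at 2.08-fold (1.57 to 2.75), and it was under 2-fold with median or spike-in scaling, normexp or the mean over probes. Scaling to the array median and to spikes each gave 0 genes higher and 2 lower, with medians of -0.19 and -0.32. The lowest values were those of Wdr74, at -0.91 (range -1.31 to -0.51), and Polr1e, at -0.85 (-1.25 to -0.45). The median was -0.04, over 39 genes with Utp18 among them, whose bound could only lie below 0 here. The range of spot error lay above 0 for 7 genes (18.4%), below 0 for 8 (21.1%) and held 0 for 23. Of 19372 genes, it lay above 0 for 20.3% and below 0 for 19.6%. Both shares were thus near those of all genes.

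The pools with BSO were also compared with those without it. Between BSO plus TGZ and TGZ, 0 of 38 genes were past 2-fold in either direction, beside 1.55% higher and 0.495% lower of 20803 genes. The median was -0.05, the farthest gene was Utp20 at -0.48 (range -0.88 to -0.08), and 28 of 38 genes lay below 0, but 6 of 38 did under spike-in scaling. The median of all genes was -0.02, and 0.26 with spikes. The biogenesis genes stood 0.03 under it by both scalings, since a shift of whole arrays leaves this gap nearly fixed. Between BSO plus RGZ and RGZ, 0 of 39 genes were past 2-fold, beside 0.509% higher and 0.716% lower of 21230 genes. Here the median was 0.29, beside 0.00 over all genes, 37 of 39 genes lay above 0, and the farthest was Rrp12 at 0.64 (range 0.24 to 1.04). The 39 again include Utp18, whose bound could only lie above 0. Over the 38 genes without it the median was also 0.29. The range of spot error lay above 0 for 10 of 38 genes (26.3%) in that comparison, beside 4.42% of 19865 genes.

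Set side by side, 26 of 38 genes (68.4%) were lower with BSO in the TGZ pair and higher with BSO in the RGZ pair, as were 28.4% of 18483 genes. The count depends on where 0 lies in the TGZ pair, and was 34 with the array median as the scale, 22 with quantiles, 20 with normexp and 6 with spikes, where 6.56% of all genes were. With the 75th percentile as the scale, both values were above 0 for 10 genes and below 0 for 2, and 0 genes had the opposite combination. The BSO difference in the TGZ pair minus that in the RGZ pair had a median of -0.39, beside -0.03 over all genes on all 5 arrays. Across the 9 other ways of processing, that median lay between -0.54 and -0.14 and stayed below 0, with spike-in scaling at the upper end. The genes farthest apart were Rrp12 (-0.95), Nop58 (-0.81), and Rrp1b, Gnl3 and Utp20 (-0.72 each). No replicate stands behind any of the 4 pools involved.

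**Figure D3:**
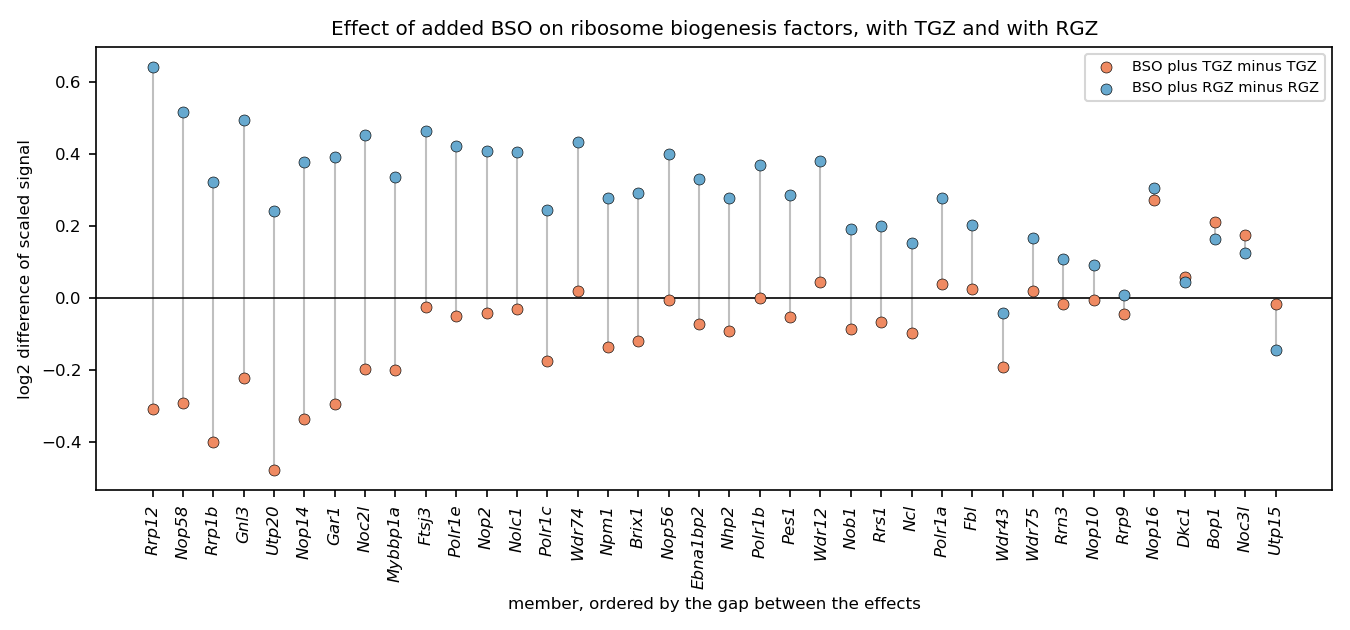
Log2 difference of the pool with BSO from that without it (y axis), for the 38 genes measured on all 5 arrays. Genes are ordered by the gap (x axis). Points are BSO plus TGZ minus TGZ and BSO plus RGZ minus RGZ. The RGZ points lie above 0 for 36 genes and the TGZ points below 0 for 28 (for 6 under spike-in scaling), and the gap is widest for Rrp12.

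Many of the genes have more than 1 probe on the array, which gives a check on the values within each pool. Of the 77 probes, 69 passed the background limit on every array, and 21 genes had at least 2 such probes. All probes of a gene had the same sign in 17 of the 21 genes for TGZ against vehicle. The count was 18 with BSO plus TGZ, 17 with RGZ and 20 with BSO plus RGZ, and it was 19 for BSO plus RGZ against RGZ. For BSO plus TGZ against TGZ, where the differences were smallest, it was 12 of 21. The probes of Nop58 that were measured on all arrays gave 2.36 to 2.91 with TGZ, those of Rrp1b 2.15 to 2.96, and the second probe of Rrp12 gave 1.82 where the first gave 1.31. These leading genes were thus high by each of their measured probes, while Gnl3, Rrs1, Nob1 and Nolc1 had 1 measured probe each.

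Some genes were read differently by their probes. Brix1 was at 0.71 with TGZ by the probe that represents it and at -0.54 by another probe of the same RefSeq transcript, while both gave 0.56 to 0.57 with RGZ. A further probe of Wdr43 was at 1.22 with TGZ and 1.11 with BSO plus RGZ, where the probe that represents it was at 0.33 and -0.34. Noc2l was at 0.64 by one probe and 1.40 by the other with TGZ. Further probes of Ftsj3 were at 1.17 and 1.09 with BSO plus RGZ, where the probe that represents it was at 0.99. Those of Wdr75 were at 1.22 and 1.02 with TGZ, beside 0.95. Nop56 was at 0.64 and 0.86 with TGZ by its RefSeq probes and at -0.11 by one for an Ensembl transcript. The values of Brix1, Wdr43, Npm1, Ncl and Dkc1 given above hold only for the probes that represent them.

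**Figure D4:**
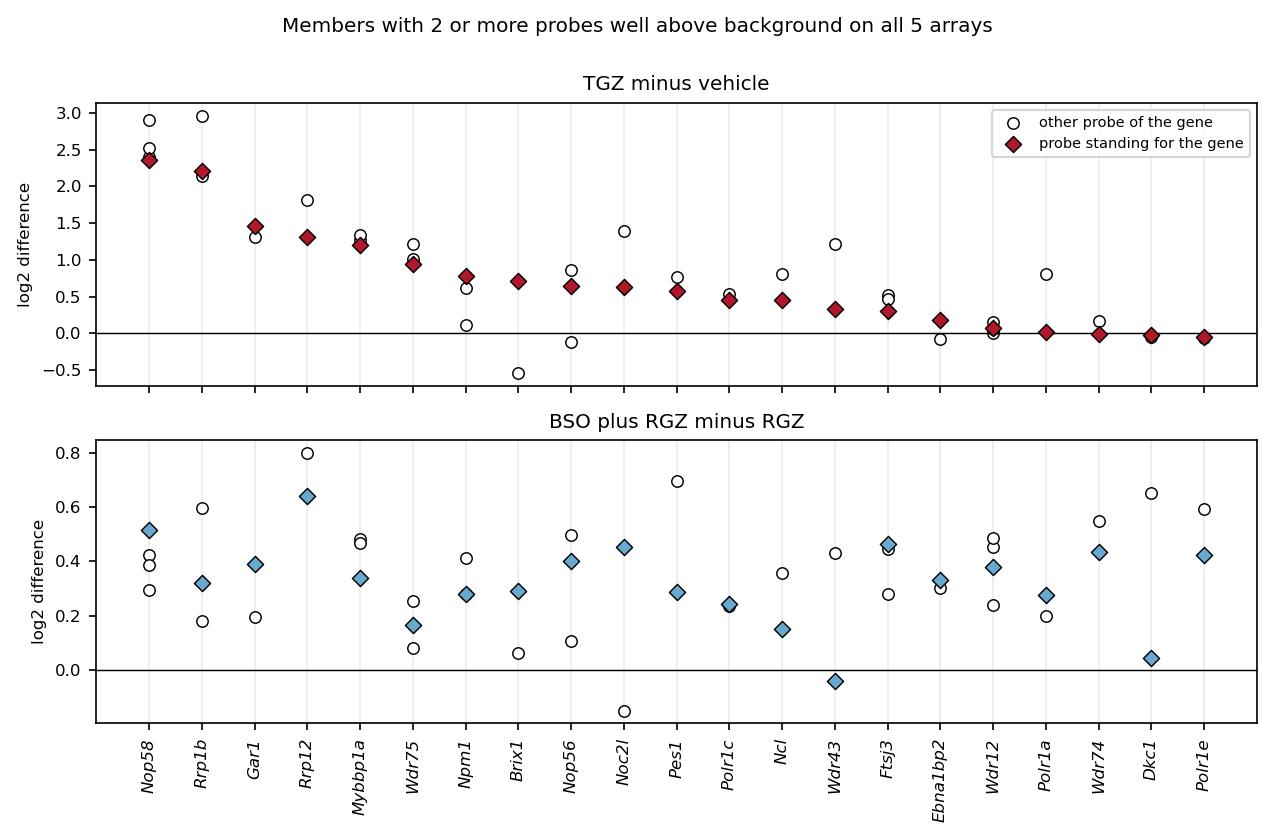
Log2 difference (y axis) for every probe of the 21 genes that have 2 or more probes well above background on all 5 arrays (x axis), for TGZ minus vehicle (top) and BSO plus RGZ minus RGZ (bottom). Filled diamonds are the probes that represent the genes. The probes of Nop58, Rrp1b, Gar1, Rrp12 and Mybbp1a all lie above 1 in the top panel, and those of Brix1 lie on both sides of 0.

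The rest of the pathway was read from a second list of 83 biogenesis factors. With TGZ, 16 of the 83 (19.3%) were at least 2-fold higher than with vehicle and 2 were lower, beside 10.1% and 9.51% of all genes. Their median was 0.38, and the 39 genes had 23.7% higher and a median of 0.56. Heatr1, a scaffold of the small subunit precursor, had 54.4 with TGZ and 40.4 with BSO plus TGZ, against 8.17 with vehicle, and was 6.66-fold higher with TGZ (range 5.05 to 8.79). Gnl2, a GTP-binding protein of large subunit export related to Gnl3, was 4.08-fold higher (3.09 to 5.38), Sdad1 3.32-fold (2.51 to 4.38) and Tsr1 3.06-fold (2.31 to 4.04). Ttf1, which ends rRNA transcription, was 2.22-fold lower with TGZ (1.62 to 3.06). With BSO plus RGZ, 4 of the 83 (4.82%) were past 2-fold, all higher, namely Tsr1, Ppan, Ddx21 and Gnl2. That share is near the 3.05% of all genes that were higher. With RGZ 0 were, beside 1.66% of all genes in each direction. As in the 39 genes, TGZ gave the wider range of values, and the BSO plus RGZ median, here 0.46, was the higher by a small amount.

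Ribosomal proteins, the parts of the finished subunits, had a narrower range than the factors that assemble them. With TGZ 0 of 46 measured genes were past 2-fold, and all 46 lay between 0.23 and 0.59 above vehicle, with a median of 0.36. With spikes as the scale their median was -0.07 and 9 of 46 lay above 0, where the median of all genes moved alike, to -0.41 beside 0.02. With quantile normalization their median was 0.05 and 31 of 46 lay above 0. With RGZ their median was 0.02, and with BSO plus RGZ 0.12. Translation initiation factors had 5 of 33 genes (15.2%) past 2-fold with TGZ, all higher, beside 10.1% of all genes. Eif1a led them at 4.03-fold (3.05 to 5.31). With RGZ and BSO plus RGZ 0 of 33 were past 2-fold, beside 3.31% and 6.83% of all genes in either direction.

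**Figure D5:**
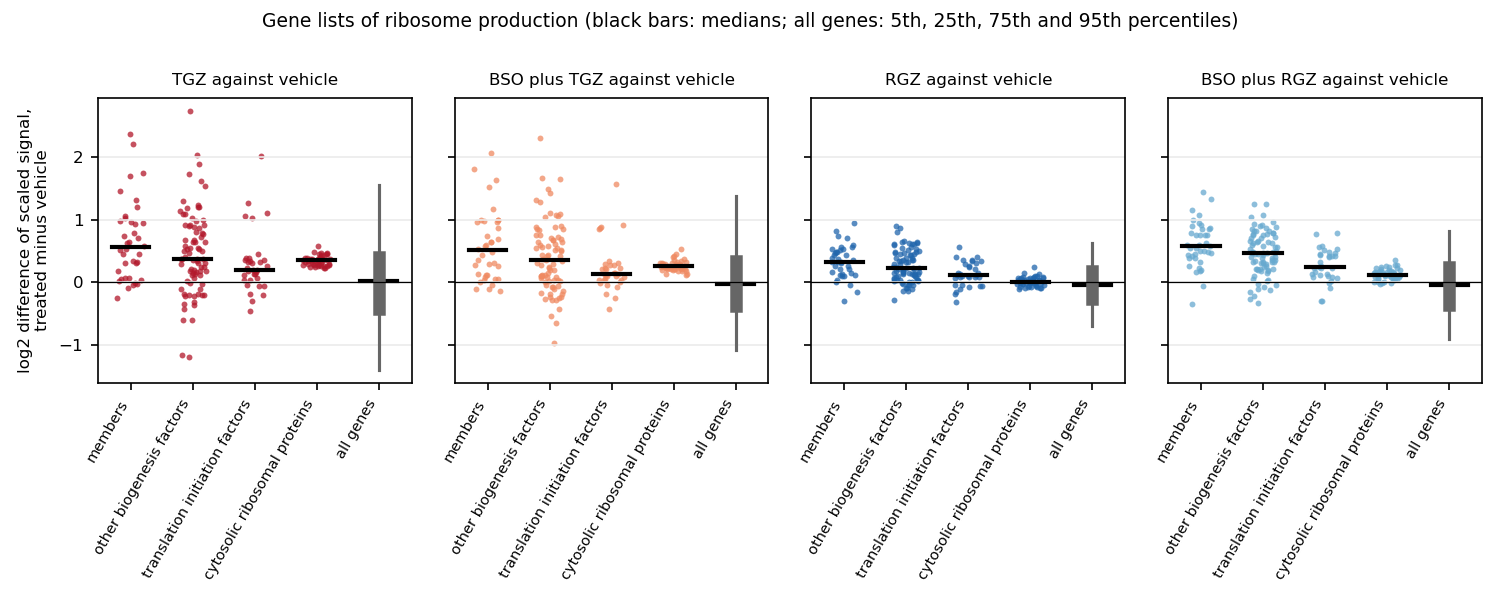
Log2 difference from vehicle (y axis) for the 39 genes (members), 83 other biogenesis factors, 33 translation initiation factors and 46 ribosomal proteins, 1 point per gene, in 1 panel per treated pool. Black bars are medians, and the grey bars show percentiles of all genes. Medians with TGZ are 0.56, 0.38, 0.20 and 0.36 from left to right.

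Myc, which encodes the transcription factor known to drive many of these genes, had scaled signals of 1.02 with TGZ, 0.869 with BSO plus TGZ, 0.315 with RGZ and 0.157 with BSO plus RGZ, against 0.0917 with vehicle. It was 11.2-fold higher with TGZ (7.69 to 16.2), 9.48-fold higher with BSO plus TGZ (6.54 to 13.8) and 3.43-fold higher with RGZ (2.36 to 5.0). Between BSO plus RGZ and RGZ, Myc was 2.0-fold lower (1.46 to 2.75). The vehicle signal of Myc was low, so its folds rest on a small background-subtracted value. Of 9 measured genes of the MYC network, 1 was past 2-fold higher with TGZ and 2 were lower, where 10.1% and 9.51% of all genes were. The lower genes were Mycn, by at least 7.11-fold, and Mycl, by at least 4.52-fold. With BSO plus TGZ they were 4.85-fold and 3.93-fold lower, and with BSO plus RGZ Mycl was 2.22-fold higher.

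MYC binds the E-box CACGTG, a site that reads the same on both strands, and this was searched in RefSeq promoters (build GRCm38.p6), 250 bases before to 50 after a gene's start. Of the 39 genes, 34 were in the table, with 38 promoters, and Fbl, Bop1, Rrs1, Rrp12 and Npm1 were not analysed here. The E-box stood in 7 of 38 promoters (18.4%), beside 7.15% of all 32851, and the median GC content was 58.2%, beside 52.7%. Those 7 belonged to Mybbp1a, Nop2, Pes1, Rrn3, Utp18, Utp20 and Wdr43, of which only Mybbp1a was past 2-fold with TGZ. A match is a string in this window and not a measured binding site. The 250 bases before the starts of Rrn3 (chr16:13780449-13780698, plus strand) and Nop2 (chr6:125131633-125131882, plus strand) show them in capitals, the first for a gene with its highest signal with TGZ and a pair of E-boxes, the second for a gene with its highest signal with BSO plus RGZ and 1.
Rrn3: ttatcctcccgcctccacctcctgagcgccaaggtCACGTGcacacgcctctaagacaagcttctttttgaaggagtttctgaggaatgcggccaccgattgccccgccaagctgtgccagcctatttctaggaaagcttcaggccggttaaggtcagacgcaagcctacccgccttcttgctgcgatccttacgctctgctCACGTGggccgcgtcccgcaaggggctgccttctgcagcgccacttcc
Nop2: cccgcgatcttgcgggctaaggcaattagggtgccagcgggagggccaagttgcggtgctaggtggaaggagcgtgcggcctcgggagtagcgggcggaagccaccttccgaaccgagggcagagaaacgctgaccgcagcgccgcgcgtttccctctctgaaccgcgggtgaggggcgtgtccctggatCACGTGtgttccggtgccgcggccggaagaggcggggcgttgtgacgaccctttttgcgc
The E-boxes begin 215 and 48 bases before the start of Rrn3 and 60 bases before that of Nop2.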

How the data were processed

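Agilent mouse arrays of 1 colour (Cy3) read 1 pool of RNA per group, which the authors made from 6 livers. Per the file headers, spots were read with Agilent Feature Extraction 12.0.3.1, and the processed intensity used here is background-subtracted. The deposited table of log2 values equalled log2 of that intensity plus a constant per array, so its scale is known, and it was used as an alternative.

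Control spots and spots with outlier flags were left out, spots of a probe were averaged, and log2 intensity was taken relative to the 75th percentile of each array. A gene needed to be well above background on at least 1 array of a comparison, and where it was dim on the other its difference is a bound. A bound that pointed toward the dim array was left out. The 95% ranges come from the scanner's error of each spot. With 1 pooled array per group there was no test, and p-values were not computed. All 8 comparisons were run over all genes. The 4 comparisons with vehicle were also checked on simulated data, with the 75th percentile as the scale. The alternatives were 4 scalings or value sources, normexp background correction (limma 3.58.1, offset 50), 3 filters and the mean over probes.

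Of the genes named with all 5 values, the rule takes up to 5 per direction past 2-fold in each comparison, or the farthest gene where none passed, and every gene of role groups of 5 or fewer. The other genes are given to account for every one, some also with all 5 values, chosen after the values were seen. From other lists, up to 4 genes past 2-fold per comparison are named. The 39 genes and all lists were chosen with earlier results of these data known. Python 3.11.15 and pandas 2.3.3 were used.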

Additional observations from a re-analysis of the deposited data

Results flagged for a closer look

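The differences in this section are those between treatments that lay farther apart than spot error, or in which a gene had values of opposite sign against vehicle. With 1 pool per group, none of these was tested against variation between animals, and no cause was tested.

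The value with BSO minus that without it was lower in the TGZ pair than in the RGZ pair, beyond spot error, for 8 of 38 genes (21.1%). This was so for 4.4% of 18483 genes. The gap was -0.95 for Rrp12, -0.81 for Nop58, -0.72 for each of Rrp1b, Gnl3 and Utp20, -0.71 for Nop14, -0.68 for Gar1 and -0.65 for Noc2l, all in log2 units. For 0 of the 38 genes was the gap above 0 beyond spot error, beside 6.52% of all genes.

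For Polr1e, Utp20, Wdr43 and Wdr74 the values with TGZ and RGZ had opposite signs against vehicle, with or without BSO, but the values below vehicle were small and lay within spot error. For Polr1e, the BSO plus TGZ value minus the BSO plus RGZ value was -0.85, and for Utp20 it was -0.64. For Wdr43 the gap was 0.62 between TGZ and RGZ and 0.47 between their BSO groups, and a further probe of Wdr43 was above vehicle in all 4 treated pools. For Wdr74, TGZ minus RGZ was -0.50, with a TGZ value of -0.01, next to vehicle.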

How the results depend on the processing

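No paired analysis was possible because each group is 1 pooled array and nothing links the samples of different groups. For the same reason no replicate could be left out. Over 9 alternatives and 8 comparisons, 123 of 144 counts of genes past 2-fold stayed within 1.5 times and 68 of 72 medians stayed within spot error. Part of this agreement was built in. Counts of lower genes were 0 in all 8 comparisons with the main processing, and 0 staying 0 was scored as unchanged. The deposited values and the filters left most values of these genes nearly as they were. The spot error used as the limit was that of a single gene, not of a median. Of 2757 values of single genes, 2702 stayed on their side of 2-fold, where a change of sign under 2-fold was not counted. Of the rest, 32 were no longer past it and 23 came past it, and 0 called values reversed.

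Spike-in scaling moved most. It gave 5 genes higher and a median of 0.13 for TGZ against vehicle, 5 higher for BSO plus TGZ, 1 higher for RGZ, 9 higher for BSO plus RGZ, a median of 0.23 for BSO plus TGZ against TGZ, 2 higher, 1 lower and a median of -0.33 for TGZ against RGZ, and 0 higher, 2 lower and a median of -0.32 for BSO plus TGZ against BSO plus RGZ. Because this scaling moves every gene of an array by the same amount, the gap to the median of all genes could hardly change. For the 39 genes it was 0.54 with TGZ and 0.62 with BSO plus RGZ. Scaling to the array median gave 5 higher for BSO plus TGZ, 8 higher for BSO plus RGZ, and 0 higher and 2 lower between the BSO groups. Quantile normalization gave 5 higher for BSO plus TGZ. Normexp gave 5 higher for BSO plus TGZ, 2 for TGZ against RGZ and 0 between the BSO groups. The mean over probes gave 1 higher for RGZ, and 0 higher and 1 lower between the BSO groups. Without a filter, 1 gene was lower for BSO plus TGZ and 1 between the BSO groups. Among all genes past 2-fold, the share that was higher also moved by over 10 points. It was 23.4% with spike-in scaling beside 51.5% for TGZ against vehicle, 46.0% beside 58.6% for BSO plus TGZ, 65.2% beside 49.9% for RGZ (60.3% with normexp), and 62.1% beside 44.6% for BSO plus RGZ (57.6% with the array median). It was 94.9% with spikes, 64.6% with the array median, 86.3% for genes dim nowhere and 52.2% unfiltered beside 75.8% for BSO plus TGZ against TGZ, and 60.2% with the array median and 55.3% with quantiles beside 41.5% for BSO plus RGZ against RGZ. It was 18.3% with spikes beside 52.3% for TGZ against RGZ, and 33.9% with spikes and 45.4% with the array median beside 61.3% between the BSO groups. With spikes, Rrp12 was at 0.88 beside 1.31, Mybbp1a at 0.78 beside 1.2 with TGZ, and Rrs1 at 0.61 beside 1.13 for TGZ against RGZ.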
